A study of Mus musculus with 11 samples.

Results

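Immediate early genes are transcribed within minutes of a stimulus from transcription factors that are already present in the cell, without new protein synthesis. The 10 genes described here were Fos, Fosb, Junb, Egr1, Egr3, Npas4, Nr4a1, Arc, Dusp1 and Ier2, chosen by name as genes that neuronal activity induces, and each symbol matched 1 of the 53700 Ensembl identifiers in the count tables. All 10 were among the 17626 genes tested. They were compared between 6 female 5xFAD mice with wild-type Abi3 (Abi3_WT) and 5 female 5xFAD mice with an Abi3 knockout (Abi3_KO), all of strain C57BL/6 by label and aged 8 months, each giving 1 cerebral cortex library.

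5xFAD mice carry neuronally expressed transgenes bearing mutations of familial Alzheimer's disease and deposit amyloid, and both genotypes carried these transgenes, so neither group was without amyloid pathology. By the study's methods, the knockout is a definitive-null deletion made on a C57BL/6N background, and the mice were heterozygous for a Trem2 polymorphism from the SJL background of the 5xFAD line. Abi3 encodes an actin regulator that in brain is found mainly in microglia, the resident immune cells, and the comparison asks how its loss bears on an amyloid-bearing cortex. Mice were anesthetized with Avertin and perfused before the right cortex was frozen, and no stimulus or behavioral task is given in the sources used here.

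Libraries held 3202310 to 5501958 reads in genes. Abi3 itself had 10 to 38 reads in the 6 Abi3_WT libraries and 0 to 2 in the 5 Abi3_KO libraries. Reads outside genes came to 59.3 to 68.8 per 100 in genes in Abi3_WT and 49.8 to 62.5 in Abi3_KO, so this share moved with genotype. The library of Abi3_KO replicate 1 stood apart across all genes. It had 3 on the first surrogate variable of the counts, where the other 10 libraries had -0.47 to -0.12. Fold changes of Fos, Fosb, Nr4a1 and Dusp1, the median fold change of the 10 genes and the summary over pairs are given with and without it. Other results include it unless stated. Excitatory neuron markers such as Camk2a and Slc17a7, microglia markers such as Cx3cr1 and astrocyte markers such as Slc1a2 were present in both groups, and striatal markers such as Drd1 were present too. Of 87 marker genes tested in 10 lists, 0 passed the test in DESeq2, against 0.539% of the 17626 genes tested. An unadjusted p under 0.05 was found for 9 of them, against 8.58% of all genes, and some of the marker genes had no adjusted p.

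In neurons, calcium entry through synaptic receptors and channels activates kinases that act on CREB, SRF with its partners, and MEF2, factors already bound near the start sites of these genes. Most of the products are transcription factors. FOS and FOSB pair with JUN proteins such as JUNB to form AP-1, EGR1 and EGR3 are zinc-finger proteins, NPAS4 is a basic helix-loop-helix factor that in brain is largely restricted to neurons, and NR4A1 is an orphan nuclear receptor. Arc acts at the synapse itself, where it promotes the removal of AMPA receptors, Dusp1 encodes a phosphatase that turns off MAP kinases, and Ier2 encodes a small nuclear protein. Apart from Npas4, they also respond to growth factors or stress in other cell types. In bulk tissue such as this, fewer cells of a type and less RNA per cell cannot be told apart.

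The bases before the start sites are shown because several of the genes moved together across animals. The windows are the 250 bases before the canonical start in GENCODE M39, read 5′ to 3′ on the gene's strand from GRCm39, the build of the count tables. Capitals mark matches, on either strand, to TGACG (the short form of the cyclic AMP response element that CREB binds), TGACGTCA (the full element, which contains the short form on both strands), TGANTCA (the AP-1 site), GCGNGGGCG (the EGR site), the CArG box bound by SRF, and the MEF2 site.
Fos (chr12:85520408-85520657, plus strand): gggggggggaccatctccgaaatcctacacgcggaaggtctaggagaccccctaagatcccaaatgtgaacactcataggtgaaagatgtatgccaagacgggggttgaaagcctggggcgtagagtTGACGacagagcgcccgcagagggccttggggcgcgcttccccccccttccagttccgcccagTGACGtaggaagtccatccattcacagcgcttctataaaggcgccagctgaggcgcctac
Junb (chr8:85705348-85705597, minus strand): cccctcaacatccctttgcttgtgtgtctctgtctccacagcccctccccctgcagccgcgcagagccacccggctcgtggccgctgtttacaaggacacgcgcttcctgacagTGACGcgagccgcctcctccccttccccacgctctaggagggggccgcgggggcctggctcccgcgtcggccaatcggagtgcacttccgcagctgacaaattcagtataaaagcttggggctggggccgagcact
Arc (chr15:74544420-74544669, minus strand): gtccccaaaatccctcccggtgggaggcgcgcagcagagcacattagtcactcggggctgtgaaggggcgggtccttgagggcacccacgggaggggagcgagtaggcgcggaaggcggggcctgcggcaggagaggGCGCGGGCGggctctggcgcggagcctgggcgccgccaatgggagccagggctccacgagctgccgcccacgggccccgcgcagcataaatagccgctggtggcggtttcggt
Nr4a1 (chr15:101164410-101164659, plus strand): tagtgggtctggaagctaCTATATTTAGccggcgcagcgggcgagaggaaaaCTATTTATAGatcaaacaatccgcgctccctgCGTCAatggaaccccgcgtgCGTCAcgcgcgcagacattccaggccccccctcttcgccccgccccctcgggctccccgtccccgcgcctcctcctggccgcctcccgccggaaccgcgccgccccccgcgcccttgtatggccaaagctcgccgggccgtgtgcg

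TGACG was in the windows of 7 of the 9 genes searched, against 18% of 21626 protein-coding promoters and 22.3% of the 14075 that belong to tested genes. In Fos its matches begin at base -123 and -60 from the start, in Junb at -136, and in Nr4a1 at -166 and -146. Dusp1 and Ier2 held the full element, which 1.69% of all promoters hold. The Nr4a1 window holds both MEF2 matches, a motif in 2.8% of promoters, and the CArG box was in 0 of the 9 windows against 1.41% of promoters. Arc and Fosb hold an EGR match, as do 4.47% of promoters, and TGANTCA was in 0 of the 9 windows against 6.19% of promoters. The Npas4 window held none of these letters, and sites farther upstream lie outside the windows. Reads of the 3′ method used here lie near the poly(A) end of transcripts, so the counts do not measure these sequences.

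None of the 10 genes passed the test between genotypes. With DESeq2, 0 of 10 had an adjusted p at or below 0.05, against 0.539% of the 17626 genes tested, and 0 of 10 had an unadjusted p under 0.05, against 8.58% of all genes. edgeR and limma also called 0 of 10, and in each of them 1 gene, Egr3, had an unadjusted p under 0.05. For all 10 genes the 2 genotypes overlapped, where 1.04% of tested genes had genotypes that did not overlap. Log2 fold changes (Abi3_KO over Abi3_WT) were negative for 7 genes and positive for Junb, Arc and Ier2, with a median of -0.22 over the 10 against -0.0033 over all genes tested. The median of the 10 was -0.08 without Abi3_KO replicate 1 and -0.09 with 1 surrogate variable in the model. The 5 genes Fos, Fosb, Npas4, Dusp1 and Ier2 had low counts and lay under the mean normalized count of 70.39 below which DESeq2 gave no adjusted p.

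**Figure D1:**
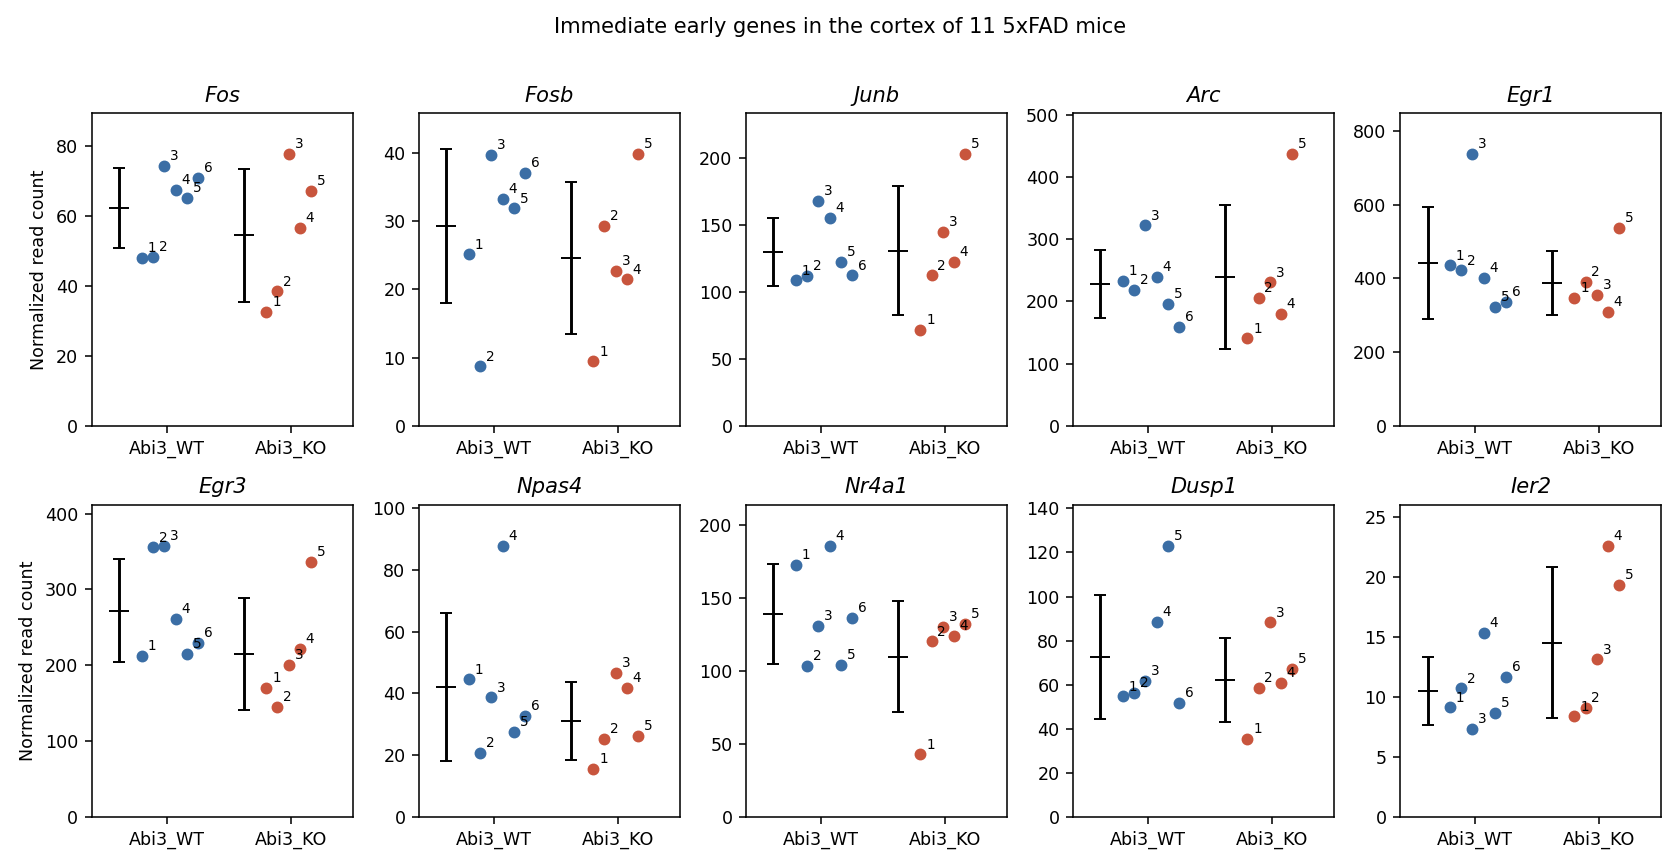
Normalized read counts of the 10 genes in each animal (vertical axes start at 0), with Abi3_WT in blue, Abi3_KO in red and the replicate number beside each point. Bars are the mean and SD (n = 6 and 5). The genotypes overlap in every panel, and Abi3_KO replicate 1 is the lowest of all 11 animals for 6 genes.

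Among the AP-1 genes, Fos (ENSMUSG00000021250, chr12:85520658-85524047) had 47.9 at the lowest, 66.2 at the median and 74.3 normalized counts at the highest of the Abi3_WT animals. In Abi3_KO replicates 1 to 5 Fos had 32.5, 38.4, 77.6, 56.5 and 67.1. Abi3_KO replicates 1 and 2 lay below all other animals, while replicate 3 was above every Abi3_WT animal. The log2 fold change of Fos was -0.20 (SE 0.24), with a 95% interval from -0.68 to 0.28 (DESeq2, unadjusted p = 0.416). Without Abi3_KO replicate 1 it was -0.06.

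Fosb (ENSMUSG00000003545, chr7:19036621-19043976) is the paralog of Fos whose truncated product accumulates with repeated stimulation, and 3′ counts do not separate its isoforms. Its normalized counts in Abi3_WT ran from 8.7 through a median of 32.6 to 39.8, and in Abi3_KO replicates 1 to 5 they were 9.44, 29.3, 22.7, 21.5 and 39.8. Abi3_WT replicate 2 and Abi3_KO replicate 1 were far below the others, with 13 and 9 reads behind these values. DESeq2 put the log2 fold change at -0.25 (SE 0.39, unadjusted p = 0.528). It was -0.04 without Abi3_KO replicate 1 and -0.45 without Abi3_WT replicate 2.

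Junb (ENSMUSG00000052837, chr8:85701113-85705359) had 108 at the lowest, 117 at the median and 167 normalized counts at the highest in Abi3_WT, and 71.3, 112, 144, 122 and 203 in Abi3_KO replicates 1 to 5. Both the lowest and the highest of all 11 animals were Abi3_KO animals, replicates 1 and 5. The genotype means were nearly equal, at 129.5 ± 25.3 for wild-type Abi3 and 130.5 ± 48.2 for the knockout (SD over 6 and 5 animals), and the log2 fold change was 0.01 (SE 0.21, 95% interval -0.40 to 0.42, DESeq2 adjusted p = 0.994).

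Egr1 (ENSMUSG00000038418, chr18:34992876-34998049), widely used as a histological marker of active cortical neurons, had 322 at the lowest, 411 at the median and 737 normalized counts at the highest in Abi3_WT. In Abi3_KO replicates 1 to 5 it had 346, 390, 354.5, 309.5 and 536. A single animal, Abi3_WT replicate 3, was well above all others, and the next was Abi3_KO replicate 5. The log2 fold change was -0.19 (SE 0.24, DESeq2 adjusted p = 0.809), and without Abi3_WT replicate 3 it was 0.02. With the reads outside genes, which moved with genotype, as a covariate, it was -0.90 (SE 0.26, DESeq2 unadjusted p = 0.00052, adjusted p = 0.622).

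Egr3 (ENSMUSG00000033730, chr14:70314350-70320063), a target of EGR1 as well as an immediate early gene, came nearest to the threshold. It had 212 at the lowest, 246 at the median and 358 normalized counts at the highest in Abi3_WT, and 170, 145, 200.5, 221 and 337 in Abi3_KO replicates 1 to 5. Abi3_KO replicates 1, 2 and 3 were below every Abi3_WT animal, replicate 4 was within the Abi3_WT range below its median, and replicate 5 was near the top of that range. The log2 fold change was -0.34 (SE 0.19, 95% interval -0.72 to 0.03, DESeq2 adjusted p = 0.477), and the exact permutation test of mean log2 levels over the 462 ways to choose 5 of 11 animals gave p = 0.156 (two-sided). The lowest adjusted p of Egr3 in any fit came without Abi3_KO replicate 5, where the log2 fold change was -0.56 and the DESeq2 adjusted p was 0.064. In that set of 10 animals the exact permutation p was 0.0333 (two-sided, unadjusted).

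Npas4 (ENSMUSG00000045903, chr19:5034382-5040344), the member most specific to neuronal calcium signals, had 20.7 at the lowest, 35.8 at the median and 87.8 normalized counts at the highest in Abi3_WT, and 15.7, 25.3, 46.6, 41.8 and 26.2 in Abi3_KO replicates 1 to 5. Abi3_WT replicate 4 was above every other animal and Abi3_KO replicate 1 was the lowest. On the log2 scale the fold change was -0.44 (SE 0.37, DESeq2 unadjusted p = 0.235) and lay between -0.63 and -0.07 when single animals were left out.

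Nr4a1 (ENSMUSG00000023034, chr15:101151980-101172681) had 104 at the lowest, 134 at the median and 186 normalized counts at the highest in Abi3_WT. In Abi3_KO replicate 1 it had 43, and in replicates 2 to 5 it had 120, 130, 124 and 132. All 5 Abi3_KO animals were below the Abi3_WT median, but 4 of them sat close together inside the Abi3_WT range and replicate 1 was the one below it. Its log2 fold change was -0.34 (SE 0.23, 95% interval -0.79 to 0.12, DESeq2 adjusted p = 0.583), and without Abi3_KO replicate 1 it was -0.13.

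Arc (ENSMUSG00000022602, chr15:74540932-74544419), whose mRNA is carried into dendrites, had 159 at the lowest, 226 at the median and 322 normalized counts at the highest in Abi3_WT, and 140.5, 205, 230, 180 and 437 in Abi3_KO replicates 1 to 5. As for Junb, the extremes of all 11 animals were Abi3_KO replicates 1 and 5. Means were 227.9 ± 54.6 for wild-type Abi3 and 238.5 ± 115.8 for the knockout (SD over 6 and 5 animals), and the log2 fold change of 0.07 (SE 0.30, DESeq2 adjusted p = 0.959) became -0.27 without Abi3_KO replicate 5.

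Dusp1 (ENSMUSG00000024190, chr17:26724564-26781102) had 51.8 at the lowest, 59 at the median and 123 normalized counts at the highest in Abi3_WT, and 35.7, 58.6, 88.3, 61 and 67.1 in Abi3_KO replicates 1 to 5. Abi3_WT replicate 5 was the highest here, although it was above its genotype's median for only 2 of the 10 genes. DESeq2 gave a log2 fold change of -0.24 (SE 0.27, unadjusted p = 0.371). It was -0.09 without Abi3_KO replicate 1 and -0.02 without Abi3_WT replicate 5. Ier2 (ENSMUSG00000053560, chr8:85387960-85389483) rested on the fewest reads, 7 to 20 per library. It had 7.32 at the lowest, 9.92 at the median and 15.3 normalized counts at the highest in Abi3_WT, and 8.39, 9.09, 13.1, 22.6 and 19.4 in Abi3_KO replicates 1 to 5. Its log2 fold change of 0.46 (SE 0.45) had the widest interval, from -0.41 to 1.33, so that a fold change as large as 2.52 could not be told from none at this depth.

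**Figure D2:**
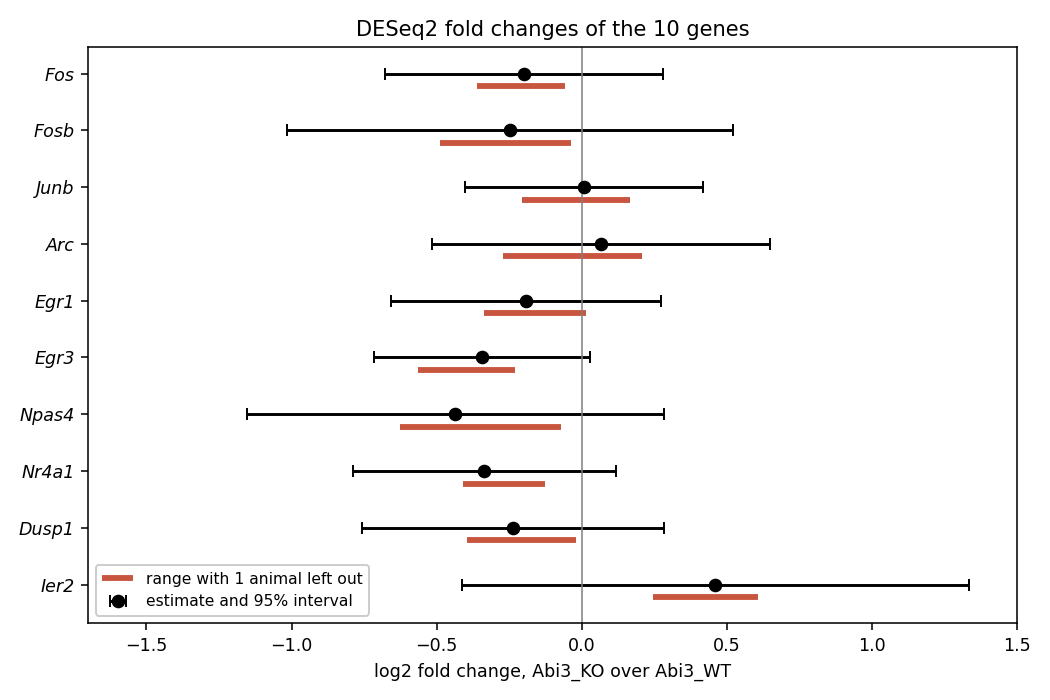
Log2 fold changes of the 10 genes (horizontal axis, Abi3_KO over Abi3_WT, DESeq2), with points and black bars for the estimate and its 95% interval and red bars for the range of the estimate when each of the 11 animals is left out in turn. All 10 intervals include 0, and the red bars of Junb, Arc and Egr1 cross 0.

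Between animals of 1 genotype these genes varied more than most genes of like count. DESeq2's gene-wise dispersion, the squared coefficient of variation beyond counting error, was set over the fitted trend for genes of the same mean count. The ratio was 5.7 for Arc, 5.57 for Egr1, 4.02 for Egr3, 3.11 for Nr4a1 and 2.29 for Junb, each above the ratio of at least 96.4% of the 12902 genes averaging 10 or more normalized counts. It was 2 for Npas4, 1.8 for Dusp1 and 1.45 for Fosb. Fos (0.864) and Ier2 (0.164) lay under the trend. The median ratio was 2.15 over the 10 genes and 0.716 over all genes, and 8 of 10 were above 1, as were 31.4% of all genes. This was not particular to the 10 genes, since 16 late-response genes, which immediate early factors switch on, had a median ratio of 2.95, 12 glucocorticoid-response genes 2.1 and 37 other immediate early genes 1.18. For Egr1, counting error made up 2.58% of the variance within genotype, while for Ier2 it made up 56.2%.

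**Figure D3:**
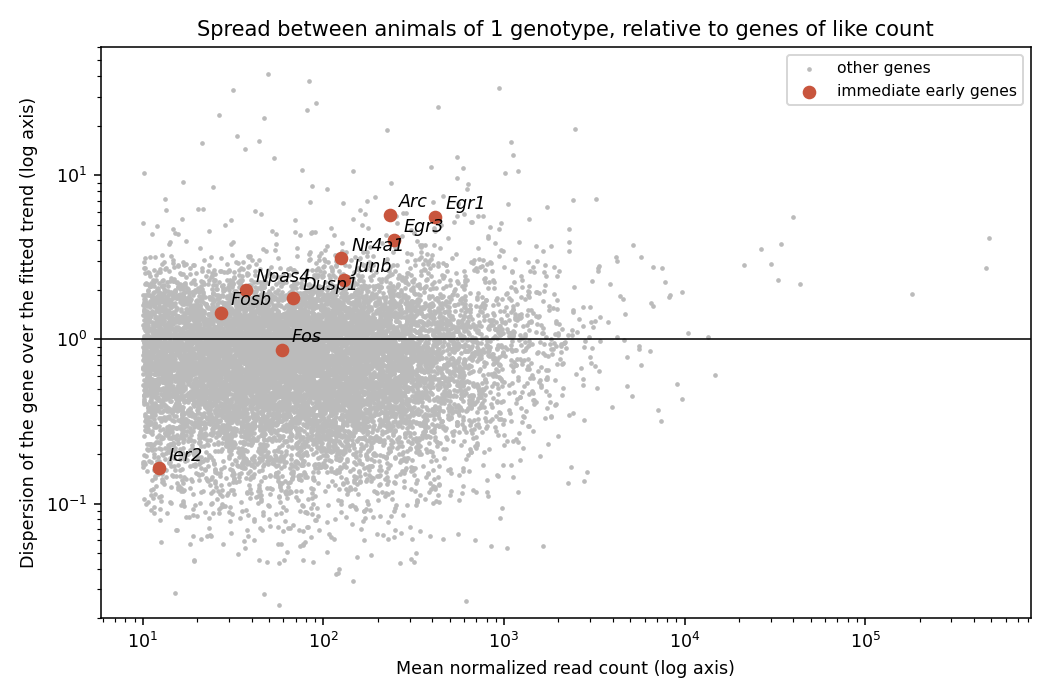
Gene-wise dispersion over the fitted trend (vertical log axis) against the mean normalized count (horizontal log axis) for 12902 genes in grey and the 10 immediate early genes in red. Arc and Egr1 lie above 5 and Fos and Ier2 below the line at 1. Points under 0.02, which are 387 genes, are not drawn.

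The spread was shared between genes. For each pair, log2(normalized count + 1) with the genotype means subtracted was correlated across the 11 animals, and p came from all 86400 orders that keep each animal in its genotype. The median Pearson's r over the 45 pairs was 0.50, against 0.0018 over the 30260310 pairs of the 7780 genes that averaged 50 or more normalized counts. It was positive in 42 pairs, and 51.1% of the pairs had r of at least 0.5, as did 7.49% of all gene pairs. In some lists of marker genes of 1 cell type the genes also co-varied. The median r was 0.56 over the 28 pairs of oligodendrocyte markers, 0.44 over the 28 pairs of astrocyte markers and 0.82 over 3 pairs of blood markers. It was 0.24 for microglia, 0.23 for excitatory neuron, 0.19 for endothelial and mural and -0.06 for inhibitory neuron markers. Late-response genes had 0.20 over 120 pairs. In each correlation the points share their library, its depth and its dissection.

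Of the 45 pairs, 11 had an unadjusted p under 0.05 and 2 passed after Benjamini-Hochberg adjustment over the 45. Npas4 and Nr4a1 gave r = 0.77 (n = 11, exact permutation p = 0.00051, adjusted 0.0229) and Spearman's rho = 0.85 (exact permutation p = 0.00242, adjusted 0.109). Without Abi3_WT replicate 4 and Abi3_KO replicate 1, the animals farthest from the median of Npas4, r was 0.68. Arc and Egr1 gave r = 0.81 (n = 11, exact permutation p = 0.0022, adjusted 0.0495) and rho = 0.77 (exact permutation p = 0.00819, adjusted 0.123), and without Abi3_KO replicates 1 and 5, the farthest from the median of Arc, r was 0.88. By rho, 0 of the 45 pairs passed. Junb and Arc had the highest r, 0.88 (n = 11, exact permutation p = 0.00382, adjusted 0.0573, rho = 0.68 with exact permutation p = 0.0315, adjusted 0.24), and r of 0.71 without Abi3_KO replicates 1 and 5. Fos and Junb, partners in AP-1, gave r = 0.80 (n = 11, exact permutation p = 0.00941, adjusted 0.106, rho = 0.80 with exact permutation p = 0.0056, adjusted 0.123), and r of 0.56 without Abi3_KO replicates 1 and 2.

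**Figure D4:**
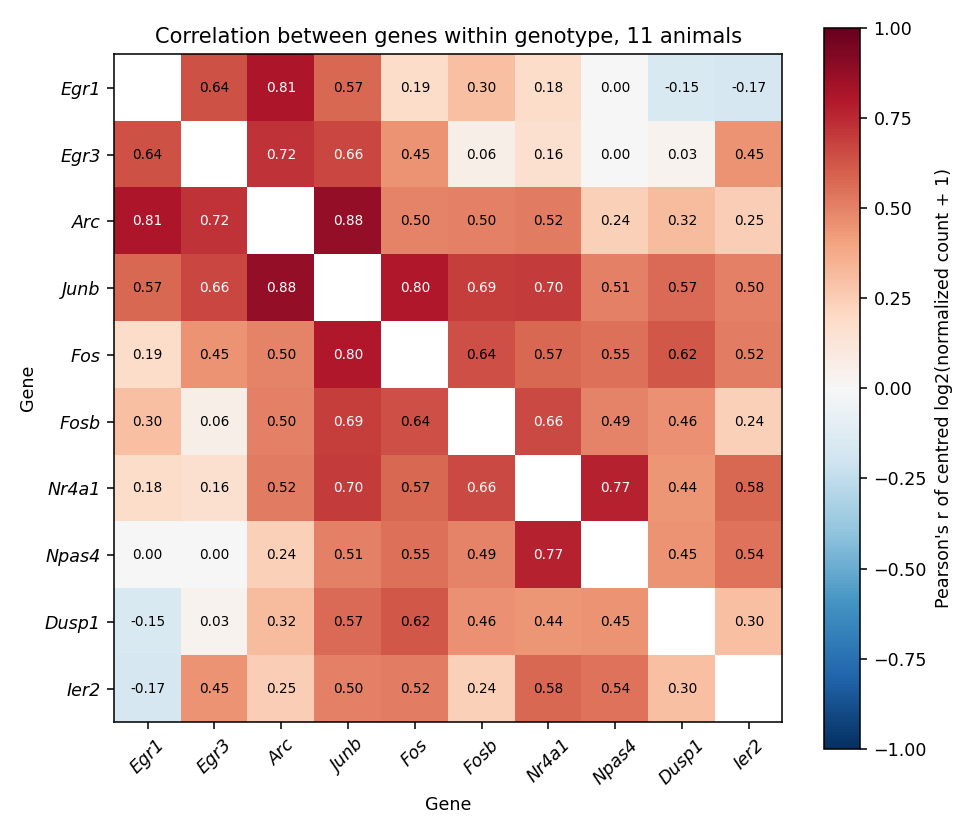
Pearson's r between each pair of the 10 genes across 11 animals, from log2(normalized count + 1) with genotype means subtracted, with color from blue (-1) to red (1) and the value in each cell. The block of Egr1, Egr3, Arc and Junb at the upper left has r from 0.57 to 0.88, and Egr1 with Npas4, Dusp1 and Ier2 lies between -0.17 and 0.00.

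The genes did not form 1 even block. Among Egr1, Egr3, Arc and Junb, a set named after the values were seen, the 6 pairs had r from 0.57 to 0.88. Among the other 6 genes, the 15 pairs had a median r of 0.54, and the 24 pairs between the sets had a median of 0.31. Junb was the gene that went with both sets, with r of at least 0.50 with each of the other 9 genes. Without Abi3_KO replicates 1 and 5, r of Junb was 0.71 with Arc and 0.60 with Npas4, but 0.27 with Nr4a1 and 0.05 with Ier2. Over all 11 animals, Egr1 had a median r of 0.19. Egr1 gave r = 0.0029 with Npas4, -0.15 with Dusp1 and -0.17 with Ier2. In single animals, Abi3_WT replicate 3 had the highest Abi3_WT value for 6 genes, Egr1, Arc and Junb among them, but not for Npas4 or Nr4a1, whose highest value was in Abi3_WT replicate 4.

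**Figure D5:**
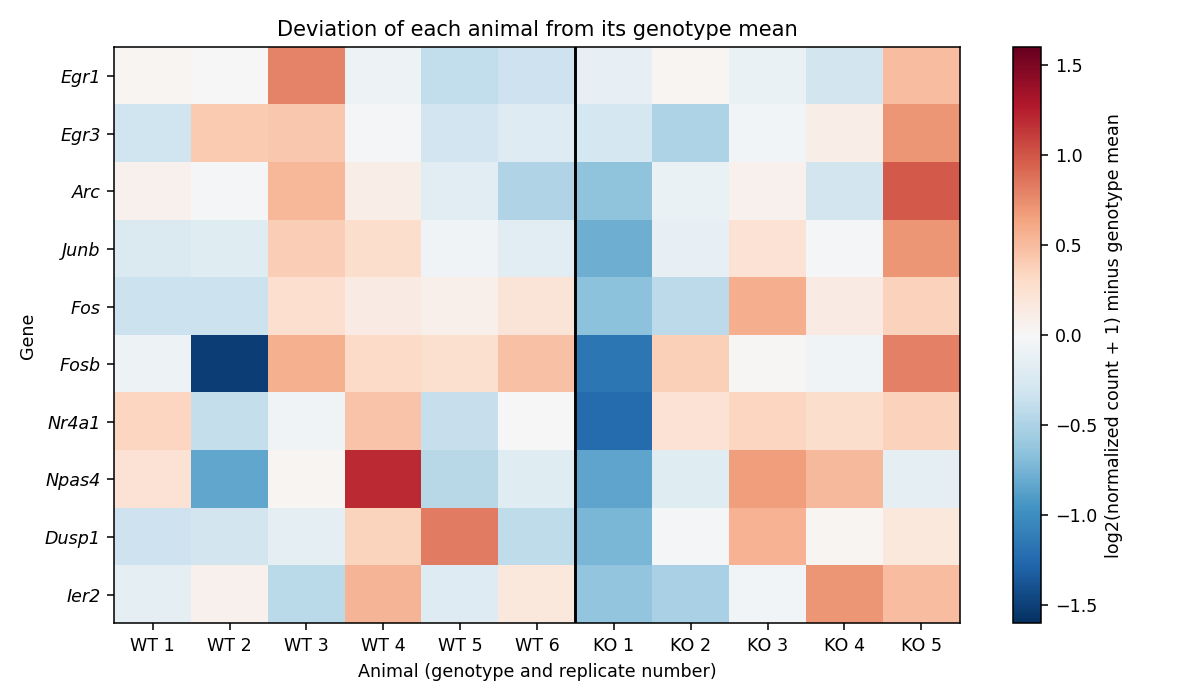
Deviation of each animal from the mean of its genotype on the log2(normalized count + 1) scale, with genes in rows, the 6 Abi3_WT (WT) and 5 Abi3_KO (KO) animals in columns, and color from blue (lower) to red (higher). The column of Abi3_KO replicate 1 is blue for all 10 genes, with -1.23 for Nr4a1 and -1.16 for Fosb, and replicate 5 is red for all but Npas4.

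Abi3_KO replicate 1, whose library stood apart over all genes and not over these 10 alone, carried much of this pattern. It was below the median of its genotype for all 10 genes and the lowest of its genotype for 8. Without it, the median r over the 45 pairs was 0.27, 17.8% of the pairs had r of at least 0.5 against 8.99% of all gene pairs, 34 pairs were positive, and 0 passed the adjusted threshold with 5 at an unadjusted p under 0.05. The median over all gene pairs was 0.0021 in these 10 animals. Arc with Egr1 gave r of at least 0.77 and Npas4 with Nr4a1 at least 0.76 in every set of 10 animals, although with the p of 10 animals the first pair passed in 0 and the second in 3 of the 11 sets, those without Abi3_WT replicate 3, Abi3_WT replicate 6 or Abi3_KO replicate 5. At the other end, Abi3_KO replicate 5 was the highest of its genotype for 6 genes. The geometric mean of the 10 normalized counts was 45.3 in Abi3_KO replicate 1 and 106.7 in replicate 5, and 67.6 to 106.8 in the Abi3_WT animals.

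The mean of the genes' z-scores within genotype served to rank other genes by likeness, with no test. Of 7773 other genes averaging at least 50 normalized counts, the 10 most alike over the 11 animals had r from 0.85 to 0.94, and 0.489% of all had r of at least 0.8. They were Atp2b1 (0.94), a calcium pump of the plasma membrane, R3hdm2 (0.92), Bmp2k (0.91), a kinase, Ftx (0.90), a noncoding RNA, Dock9 (0.90), an activator of the GTPase CDC42, Akap7 (0.88), an anchor of protein kinase A, Hacd2 (0.87), an enzyme of fatty acid elongation, Psmc2 (0.87), a subunit of the proteasome, Snrpb2 (0.86), a spliceosome protein, and D630045J12Rik (0.85). Atp2b1 kept r of 0.93 without the 2 animals farthest from its own median, and D630045J12Rik and Hacd2 had 0.61 and 0.55. The range of Atp2b1 was narrow, 5687 to 6943 normalized counts, with the lowest value in Abi3_KO replicate 1 and the highest in replicate 5. Snrpb2 was the only one of these 10 past the genotype test, at 229.5 ± 22.1 for wild-type Abi3 and 307.9 ± 34.9 for the knockout (SD over 6 and 5 animals, log2 fold change 0.42, SE 0.11, DESeq2 adjusted p = 0.0193).

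Other genes of the same program were taken from lists. Of 42 other immediate early genes tested, 17 had an adjusted p in DESeq2. In DESeq2, edgeR or limma 0 passed, where DESeq2 called 0.539% of all genes. An unadjusted p under 0.05 in DESeq2 was found for 3, against 8.58% of all genes. These were Jun with a positive and Klf4 and Ccn1 with a negative log2 fold change. The lowest unadjusted p was that of Klf4, a zinc-finger factor, with 29 at the lowest, 53.6 at the median and 75.3 normalized counts at the highest in Abi3_WT, and a range of 19.4 to 54.5 in Abi3_KO (log2 fold change -0.74, SE 0.30, DESeq2 unadjusted p = 0.0134). The list's median log2 fold change was 0.04. Its own 666 pairs among 37 genes had a median r of 0.02. Of its 21 genes averaging at least 50 normalized counts, 5 had r of at least 0.5 with the mean z-score of the 10 genes, against 8.97% of the 7773 ranked genes. These were Egr4, Trib1, Jund, Nr4a3 and Dusp6, named after their values were seen.

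Late-response genes are those that the immediate early factors switch on afterwards, many of them secreted peptides. Of 19 tested, 12 had an adjusted p in DESeq2. In DESeq2, edgeR or limma 0 passed, where DESeq2 called 0.539% of all genes. An unadjusted p under 0.05 in DESeq2 was found for 2, against 8.58% of all genes. The lowest was Gpr3, a receptor, with a mean of 8.89 normalized counts in Abi3_WT and 2.26 in Abi3_KO (DESeq2 unadjusted p = 0.0223). Bdnf, the neurotrophin, named after its values were seen, had 178.5 ± 59.1 normalized counts for wild-type Abi3 and 180.7 ± 42.6 for the knockout (SD over 6 and 5 animals). Of the 13 late-response genes averaging at least 50 normalized counts, 0 had r of at least 0.5 with the mean z-score, against 8.97% of the 7773 ranked genes.

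Of 29 kinases, phosphatases and factors upstream of these genes, 1 passed, against 0.539% of all genes. It was Mef2c, the MEF2 factor of excitatory neurons and also of microglia, with 2277 at the lowest, 2440 at the median and 3060 normalized counts at the highest in Abi3_WT and 2766 to 3360 in Abi3_KO, overlapping groups. Its log2 fold change was 0.27 (SE 0.075, DESeq2 adjusted p = 0.0371). The call was lost in edgeR (adjusted p = 0.233) and limma (0.0788), and in DESeq2 fits without Abi3_WT replicate 1, 5 or 6 or Abi3_KO replicate 1, 2 or 5, with an adjusted p of up to 0.142. Reads outside genes moved with genotype, and with their share as a covariate Mef2c had an adjusted p of 1 in DESeq2.

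Glucocorticoid-response and heat-shock genes are background here as other sets of genes that stress induces. Sgk1, a kinase that glucocorticoids induce, was the 1 of 14 tested glucocorticoid-response genes that passed, against 0.539% of all genes, with 66.9 at the lowest, 79.7 at the median and 115 normalized counts at the highest in Abi3_WT and 66.1 to 206 in Abi3_KO (log2 fold change 0.81, SE 0.24, DESeq2 adjusted p = 0.0482, edgeR 0.0807, limma 0.257). DESeq2 called it without Abi3_WT replicate 6, Abi3_KO replicate 1 or Abi3_KO replicate 3, gave it no adjusted p without Abi3_WT replicate 1, 2 or 3 or Abi3_KO replicate 5, and an adjusted p of up to 0.158 without Abi3_WT replicate 4 or 5 or Abi3_KO replicate 2 or 4. Fkbp5, a chaperone that glucocorticoids induce strongly, ranked 15 of the 7773 genes by likeness to the 10 genes (r = 0.84) and had an unadjusted p of 0.0511 in DESeq2, and was named after these values were seen. The mean z-score of the glucocorticoid-response list gave r = 0.71 with that of the 10 genes, and 0.18 without the 2 animals farthest from the list's median, as a description.

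Of 9 heat-shock genes, 2 passed, against 0.539% of all genes, and both had groups that did not overlap, as did 1.04% of all genes. Hspd1, a mitochondrial chaperonin, had 147 to 178 normalized counts in Abi3_WT and 208 to 232 in Abi3_KO (log2 fold change 0.43, SE 0.11, DESeq2 adjusted p = 0.0206), and Hsp90aa1, a cytosolic chaperone, had 1649 to 2043 and 2118 to 2439 (log2 fold change 0.23, SE 0.069, DESeq2 adjusted p = 0.0489). Neither was called in edgeR or limma. In DESeq2, without Abi3_WT replicate 5 or 6 or Abi3_KO replicate 2 neither was called, and without Abi3_WT replicate 3 or Abi3_KO replicate 1 or 3 Hsp90aa1 was not. Without Abi3_WT replicate 2 Hspd1 had no adjusted p, and without Abi3_KO replicate 5 Hspd1 had none and Hsp90aa1 had 0.135. This list's mean z-score gave r = -0.27 with that of the 10 genes. Of 12 clock-output genes, which vary with time of day, 9 had an adjusted p in DESeq2. In DESeq2, edgeR or limma 0 of the 12 passed, where DESeq2 called 0.539% of all genes. An unadjusted p under 0.05 in DESeq2 was found for 1, against 8.58% of all genes. It was Hlf (log2 fold change 0.18, SE 0.086, DESeq2 unadjusted p = 0.0349). The clock-output list gave r = 0.31.

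Measures of the libraries were set beside the mean z-score of the 10 genes across the 11 animals, as descriptions. Reads in genes gave r = -0.32 and reads outside genes r = -0.05, and in libraries thinned to 3202310 reads each the median r over the 45 pairs was 0.55. Among cell-type lists, the 12 excitatory neuron markers gave r = 0.48, the 8 oligodendrocyte markers 0.50 and the 11 endothelial and mural markers averaging at least 10 normalized counts -0.50. Without the 2 animals farthest from each list's median these were -0.10, 0.07 and -0.50. Summed over the list, excitatory neuron markers ran from 15290 to 17960 normalized counts in Abi3_WT and from 15690 to 19500 in Abi3_KO, oligodendrocyte markers from 7758 to 10650 and from 8459 to 11630, and endothelial and mural markers from 1097 to 1515 and from 1238 to 1425. The other 7 marker lists, for inhibitory neurons, microglia, astrocytes, blood, striatum, choroid plexus and dentate gyrus, gave r from -0.51 to 0.23. The lowest was that of 3 dentate gyrus markers, with -0.62 without the 2 animals farthest from the list's median. For 4 choroid plexus markers r was 0.10, and -0.58 without the 2 animals farthest from that list's median. Markers of microglia gave r = 0.01. The study describes Abi3 as expressed mainly in microglia, and cites its expression in cultured neurons too. The part of cell makeup in the levels of the 10 genes was not tested.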

How the data were processed

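Cerebral cortex RNA of 11 mice was read by QuantSeq 3′ mRNA sequencing, 1 library per animal. Per the labels and the study's methods, the authors trimmed the single-end reads, aligned them with STAR 2.7.3a to GRCm39 and counted them per Ensembl gene on the sense strand with HTSeq 0.9.1, and deposited raw counts per gene. No step for molecular identifiers is stated, so intervals cover the spread between these animals, and reads need not be independent molecules. Rows that tally reads not assigned to a gene were left out of library sizes and tests. Among these rows, reads outside genes came to 49.8 to 68.8 per 100 reads in genes. Alignments that were not unique, also left out, numbered 10989753 to 21862861 per library.

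Counts were fitted as in the study with DESeq2 1.42.0 (R 4.3.3, genotype as the term). Genes with a total count of at least 10 entered the fit, those averaging 1.5 or more normalized counts were reported, and an adjusted p (Benjamini-Hochberg, independent filtering) at or below 0.05 was called. Alternatives were edgeR 4.0.16 (quasi-likelihood), limma 3.58.1 (voom with sample weights), TMM factors, other filters on low counts, a replicate block, 1 surrogate variable (sva 3.50.0), reads outside genes, relative to reads in genes, as a covariate, and each animal left out. The same 10 animals without the block were added after the data were seen. Levels were compared by exact permutation and pairs by exact within-genotype permutation (SciPy, log2 with a pseudocount of 1), and scripts were tested on simulated data. Numbers shared between genotypes name different animals.

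The members and lists were chosen with earlier results of these data known. Named genes were the 10 members, at most 5 called genes per list or, with none, the gene with the lowest unadjusted p, the 10 genes most like the members' mean z-score, and Abi3, and genes outside this rule are marked as such or serve only as marker examples. Gene names, start sites and coordinates came from GENCODE M39 on GRCm39, which matched 98% of the 53700 identifiers. The start-site window of 1 member is not reported here. The p-values measure the spread between these animals.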

Additional observations from a re-analysis of the deposited data

Results flagged for a closer look

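The values of 3 animals, 1 gene each, lay apart from the rest of their group by Dixon's criterion, of 20 groups examined (10 genes in 2 genotypes), where chance flags about 1. Egr1 in Abi3_WT replicate 3 had 737.4 normalized counts, and the next animal had 434.9. Npas4 in Abi3_WT replicate 4 had 87.75, and the next animal had 44.52. Nr4a1 in Abi3_KO replicate 1 had 43.0, and the next animal had 120.2. No cause was tested. Without these animals in turn, Egr1 had a log2 fold change of 0.02, Npas4 of -0.07 and Nr4a1 of -0.13.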

How the results depend on the processing

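The count of 0 called members held under all alternatives run. Fos, Fosb, Egr3, Nr4a1, Dusp1 and Ier2 kept their direction in all model fits. In the mean log2 levels of the exact permutation test, the Fosb difference went from -0.24 to 0.05 without Abi3_KO replicate 1. Junb turned to -0.041 in limma, -0.075 with the replicate block, -0.029 in the same 10 animals without it and -0.29 with the share outside genes as a covariate, and lay between -0.21 and 0.17 with single animals left out. Arc turned to -0.012, -0.11, -0.019 and -0.61 in the same order, with -0.27 to 0.21. Npas4 turned to 0.36 with the share as a covariate, where Egr1 had -0.90, Egr3 -0.61, Fosb -0.66, Nr4a1 -0.023 and Ier2 1.35, each with an adjusted p of at least 0.622. Egr1 ran from -0.34 to 0.016 (without Abi3_WT replicate 3) with single animals left out. The members' median fold change lay between -0.31 and -0.08 (without Abi3_KO replicate 1) with single animals left out, and was -0.09 with 1 surrogate variable. Members with an exact p under 0.05 numbered 0 to 1.

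Genes called over the whole table numbered 95, but 57 without independent filtering, 37 in edgeR, 20 in limma, 55 with 1 surrogate variable, 3 with the share as a covariate and 46 to 120 with single animals left out, at most 61 without Abi3_WT replicate 1 or 6 or Abi3_KO replicate 1, 2 or 5. In place of 1 upstream activator, 0 were called without independent filtering, with TMM factors, edgeR, limma, the surrogate variable, the share or the 10 animals without the block, and 0 to 2 with single animals left out. In place of 1 glucocorticoid-response gene, 0 were called without independent filtering, with TMM factors, edgeR, limma or the share, and 0 to 1 with single animals left out. In place of 2 heat-shock genes, 1 was called without independent filtering, without the low-count filter or with TMM factors, 0 in edgeR, limma, with the surrogate variable, the share or the 10 animals without the block, and 0 to 2 with single animals left out. The cause of these differences was not tested.

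The replicate block called 33 genes against 48 in the same 10 animals without it, with 0 members, 0 upstream activators, 0 glucocorticoid-response genes and 0 heat-shock genes. Same-numbered animals correlated by 0.018 on average in their deviations from the genotype means (-0.0048 to 0.066), 2 of 5 Abi3_WT animals correlated best with their own number, and the labels do not pair them. In the levels test, sign flips over 5 differences cannot reach an exact p under 0.05.

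Pairs past the threshold numbered 2, but 0 by Spearman's rho, 1 without centring, 0 in Abi3_WT alone (median r 0.18), 0 in Abi3_KO alone (median r 0.66 over 5 animals, too few to read) and 0 to 1 with single animals left out (median r 0.27 to 0.54). With low counts, adjusted p was not given for 5 of the 10 genes.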
